A study of Mus musculus with 12 samples.

Results

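The L1 family, the contactins and the neural cell adhesion molecules (NCAMs) are immunoglobulin-domain adhesion molecules of growing axons, and 10 of their genes were followed here: the L1 family genes Chl1, L1cam, Nrcam and Nfasc, the contactin genes Cntn1, Cntn2, Cntn3 and Cntn4, and the NCAM genes Ncam1 and Ncam2. They were selected by gene symbol, and all 10 were found among the 31091 genes of the deposited table for postnatal day 3 (P3). The libraries came from granule cell progenitors, which divide in the outer layer of the young cerebellum and give rise to its granule neurons, with 3 control samples of genotype WT and 3 samples of genotype Znhit3 conditional knockout (cKO), all from mice at P3. The ZNHIT3 protein has a zinc finger of the HIT type and takes part in building small nucleolar RNA-protein particles. The driver of the deletion, the alleles that the control mice carried, any pooling of animals and the source of each replicate were not found in the labels, so the p-values reflect sample-to-sample spread alone, and that spread may be technical. The series also holds 3 control and 3 cKO samples at P6, which were not analysed here.

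L1 family proteins span the membrane and bind ankyrin with their cytoplasmic tail, which ties sites of cell contact to the spectrin skeleton of the axon. Contactins have a similar extracellular part but are held by a lipid anchor and signal through partners in the same membrane, such as the contactin-associated proteins. NCAM carries polysialic acid, a long sugar chain that weakens adhesion while neurons migrate and extend axons. In the developing cerebellum, contactin 2 (also called TAG-1) is known from granule cells that have just left the cell cycle and begin to extend parallel fibres, and L1 from their axons.

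Levels are FPKM, the deposited read count per kilobase of gene length and for a fixed number of sequenced reads, so that levels of different genes may be set side by side. The libraries held between 29119803 and 52961445 counted reads. Znhit3, the targeted gene, measured 9.15, 8.62 and 8.58 FPKM in control and 4.03, 4.01 and 4.57 FPKM in cKO, a fall to 47.8% of the control mean (adjusted limma p of 0.00024) in the direction of the labels. Among 10 marker genes of granule cell progenitors all were detected above 1 FPKM, and Atoh1, which specifies this lineage, lay between 32.8 and 41.3 FPKM in the 6 libraries.

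Each difference is the cKO mean minus the control mean of log2(FPKM + 1), a scale that understates the change of weakly expressed genes. In bulk RNA such as this, fewer cells of a type and less RNA per cell cannot be told apart. limma was fitted over the 13538 genes whose mean reached 1 FPKM, and a gene was called where its p, adjusted by Benjamini and Hochberg, was under 0.05. Of the 10 genes 8 passed that filter, and Cntn3 and Cntn4 did not. Chl1 and Nfasc were called higher in cKO, Cntn2 and L1cam were called lower, and Nrcam, Cntn1, Ncam1 and Ncam2 were not called. Of all tested genes 19.1% were called, 13.4% higher and 5.74% lower. The share of higher genes among all calls was 70.0%, and it was 56.8% with quantile normalization, 81.7% with TPM scaling, 53.1% after removal of a gene length trend and 49.2% with voom on recovered reads. The authors' deposited table lists an adjusted p under 0.05 for 5 of the 10 genes (the 4 above and Ncam2), against 23.1% of the 16021 genes with an adjusted p below 1. Its log2 fold changes were 0.49 for Chl1, 0.30 for Nfasc, -0.28 for L1cam and -0.33 for Cntn2. The ranges of the groups were apart in 7 of the 8 tested members (5 with cKO above, 2 with cKO below) and in 40.5% of all tested genes (27.3% above, 13.2% below). The members were chosen with earlier results of these data known, so these shares are not a test of the set.

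The 200 bases upstream of the annotated start are shown for the 4 called genes, so that the genes that rose and those that fell can be set side by side. They are RefSeq sequences (build GRCm38.p6), 5′ to 3′ on the strand of the gene, taken at the most upstream start listed, with each E-box, the binding sequence CANNTG of basic helix-loop-helix factors such as ATOH1 and NEUROD1, in capitals. These coordinates are not on the scale of the deposited gene positions given further on, which do not match that build.
Chl1 (chr6:103510676-103510875, plus strand): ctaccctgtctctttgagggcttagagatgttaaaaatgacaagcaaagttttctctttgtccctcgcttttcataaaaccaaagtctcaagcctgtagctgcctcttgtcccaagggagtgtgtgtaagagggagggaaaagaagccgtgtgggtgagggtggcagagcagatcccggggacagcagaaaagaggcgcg
Nfasc (chr1:132707327-132707526, minus strand): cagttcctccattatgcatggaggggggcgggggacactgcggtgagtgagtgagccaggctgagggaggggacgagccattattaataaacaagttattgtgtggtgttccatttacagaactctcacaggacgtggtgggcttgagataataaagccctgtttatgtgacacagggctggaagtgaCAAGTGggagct
Cntn2 (chr1:132542941-132543140, minus strand): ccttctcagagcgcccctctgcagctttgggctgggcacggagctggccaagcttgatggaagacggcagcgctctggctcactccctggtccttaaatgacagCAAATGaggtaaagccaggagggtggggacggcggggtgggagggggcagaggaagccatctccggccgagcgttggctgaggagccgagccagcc
L1cam (chrX:73880835-73881034, minus strand): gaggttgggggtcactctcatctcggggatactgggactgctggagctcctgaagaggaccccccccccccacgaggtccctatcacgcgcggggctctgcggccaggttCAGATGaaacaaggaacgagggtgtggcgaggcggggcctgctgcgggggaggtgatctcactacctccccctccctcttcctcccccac
The motif CANNTG reads the same on both strands. The window held 1 E-box in Nfasc, Cntn2 and L1cam and none in Chl1. Of all 32851 windows of that length 58.2% held at least 1. The genes that rose had GC contents just under the median of 53% over all windows, 50.5% in Chl1 and 51.5% in Nfasc. Those that fell had 65% in Cntn2 and 66.5% in L1cam. Windows were found for 9 of the 10 genes. Nrcam and Ncam2, not called, had higher GC contents of 73.5% and 77.5%. Those of Cntn1, Cntn4 and Cntn3 were 55%, 43.5% and 27.5%. For Nfasc and for L1cam 2 starts were listed, and only the most upstream was used. The GC box GGGCGG, counted on both strands, was found in Nfasc, Nrcam and Ncam2 and in 31.05% of all windows, and the TATA box TATAAA, also on both strands, in none of the 9 and in 9.96% of all windows. These matches describe the letters only.

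In the control libraries the 10 genes covered a wide range of levels. Cntn2 was the most abundant at 49.7 ± 1.7 FPKM (SD, n = 3), 2.77 times the level of Nrcam at 17.9 ± 0.76 FPKM (SD, n = 3). L1cam followed at 14.7 ± 0.36 FPKM and Ncam1 at 14.6 ± 1.1 FPKM, and the ranges of these neighbours overlapped. Cntn1 measured 11.7 ± 0.65, Nfasc 7.09 ± 0.40, Chl1 4.58 ± 0.38 and Ncam2 1.20 ± 0.10 FPKM. Cntn3 at 0.318 ± 0.042 FPKM and Cntn4 at 0.070 ± 0.055 FPKM were the lowest. Apart from L1cam and Ncam1, neighbours in this order did not overlap in their ranges. In the cKO libraries the order was the same except that L1cam came after Ncam1 and Cntn1, with ranges that overlapped between Cntn1 and L1cam.

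**Figure D1:**
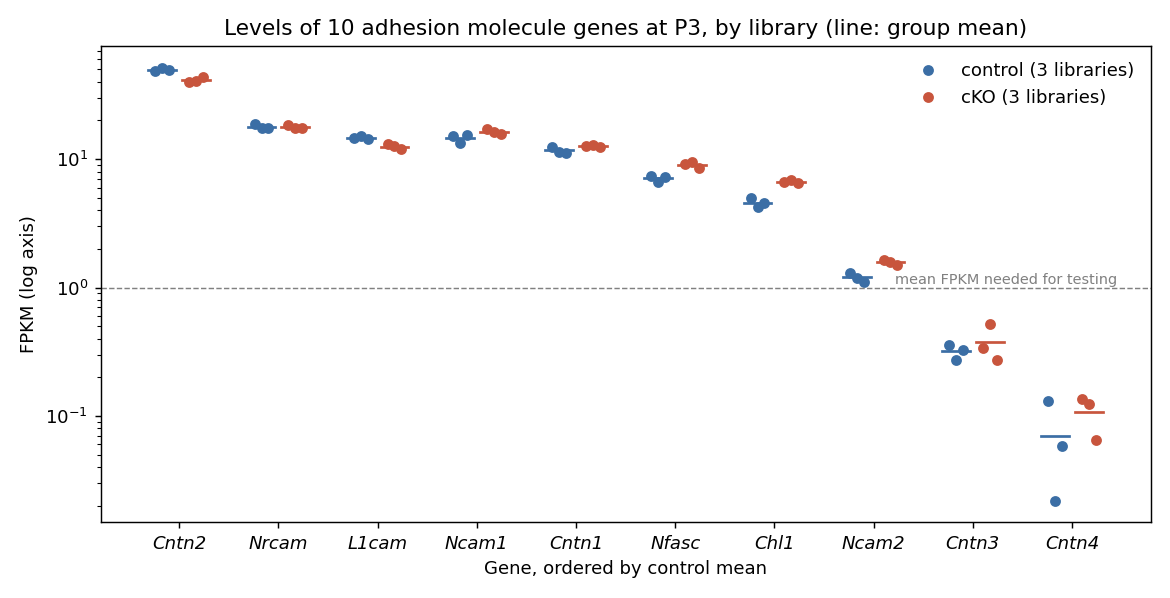
FPKM of each of the 10 genes in each P3 library on a log axis, ordered by the control mean, with control libraries in blue and cKO libraries in red and a line at each group mean of 3. Cntn2 lies highest at 49.7 and 41.2 FPKM, and Cntn3 and Cntn4 lie below the dashed line of 1 FPKM in every library.

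Chl1, which encodes close homologue of L1, a promoter of neurite growth, showed the largest rise of the 8 tested genes. The gene (ENSMUSG00000030077) lies on chromosome 6 at 103487547 to 103727172, plus strand, in the deposited table. Chl1 measured 4.98, 4.24 and 4.52 FPKM in control and 6.60, 6.88 and 6.53 FPKM in cKO. All 3 cKO values were above all 3 control values. The mean was 6.67 ± 0.18 against 4.58 ± 0.38 FPKM (SD, n = 3), 45.5% higher, with a difference of 0.46 ± 0.06 (SE, 95% interval 0.32 to 0.60) and an adjusted limma p of 0.0027. Of all tested genes 2.53% had a higher difference. The value rested on 1681 to 3405 reads per library.

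Nfasc encodes neurofascin, which clusters sodium channels at the axon initial segment and at nodes of Ranvier, with a separate form made by myelinating glia. The deposited table places it (ENSMUSG00000026442) on chromosome 1, 132492428 to 132669535, minus strand, and counts the gene as a whole, so these forms are not told apart. Nfasc measured 7.35, 6.63 and 7.30 FPKM in control and 9.21, 9.49 and 8.46 FPKM in cKO. The groups did not overlap, and the lowest cKO library was replicate 3. Nfasc rose by 27.6%, a difference of 0.31 ± 0.06 (SE, 95% interval 0.18 to 0.45) with an adjusted limma p of 0.011. Of 8 oligodendrocyte lineage markers 7 were also called higher in cKO (summed 121 to 127 FPKM in control, 154 to 167 FPKM in cKO). The other, Pdgfra, was lower in every cKO library. Of 8 GABAergic interneuron markers 7 were called higher as well, and Lhx1 was called lower. The part of either cell type in the Nfasc result was not tested.

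L1cam, which encodes L1, the founding member of the family, moved the other way. It measured 14.6, 15.1 and 14.4 FPKM in control and 13.0, 12.5 and 12.0 FPKM in cKO. Every cKO value was below every control value, and the mean fell from 14.7 ± 0.36 to 12.5 ± 0.51 FPKM (SD, n = 3). The difference was -0.21 ± 0.05 (SE, 95% interval -0.32 to -0.11) with an adjusted limma p of 0.018. The call depended on single libraries: the adjusted limma p was 0.065 without control replicate 2, 0.067 without cKO replicate 2 and 0.056 without cKO replicate 3. L1cam (ENSMUSG00000031391) lies on the X chromosome (72897384 to 72939711, minus strand), and sex-linked transcripts moved with the groups in these libraries. Xist, the RNA of the inactive X, averaged 53.7 FPKM in control and 24.0 FPKM in cKO, and the Y-linked genes Ddx3y, Eif2s3y, Kdm5d and Uty were all called higher in cKO, Ddx3y from 5.28 to 12.4 FPKM. Xist and these Y-linked genes were detected in every library, and their ranges were apart between the groups. The mix of sexes may thus differ between the groups, and for every gene reported here that cannot be told apart from genotype. Its part in the result for L1cam or for any other gene was not tested.

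Nrcam, which encodes the family member that binds contactins and neuropilins, was the most abundant L1 family gene. Its entry (ENSMUSG00000020598) is on chromosome 12, 44375668 to 44648747, plus strand. It measured 18.8, 17.6 and 17.4 FPKM in control and 18.4, 17.4 and 17.5 FPKM in cKO. The groups overlapped, and the difference was -0.01 ± 0.05 (SE) with an adjusted limma p of 0.86. Its 95% interval ran from -0.12 to 0.10, so a difference of the size fitted for Chl1 lay outside it.

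Ratios within each library, which do not depend on the scaling between libraries, show the balance of the L1 family genes. The ratio of Chl1 to L1cam in FPKM was 0.342, 0.281 and 0.315 in control and 0.506, 0.548 and 0.544 in cKO. The ratio of Nfasc to Nrcam was 0.396 ± 0.021 in control and 0.510 ± 0.032 in cKO (SD, n = 3). Neither ratio overlapped between the groups. The summed level of the 4 genes did overlap, with 43.5 to 45.7 FPKM in control and 44.5 to 47.3 FPKM in cKO.

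Cntn2 fell by the largest amount of the 8 tested genes. Its entry in the deposited table (ENSMUSG00000053024) is on chromosome 1, 132437165 to 132470994, minus strand. Cntn2 measured 48.5, 51.6 and 49.1 FPKM in control and 39.6, 40.7 and 43.3 FPKM in cKO. The groups did not overlap, and cKO replicate 3 was the nearest to control. The mean fell from 49.7 ± 1.7 to 41.2 ± 1.9 FPKM (SD, n = 3), or 82.8% of control, with a difference of -0.27 ± 0.05 (SE, 95% interval -0.38 to -0.16) and an adjusted limma p of 0.0092. Of all tested genes 4.58% had a lower difference. With 11718 to 24172 reads per library it was the most deeply read of the 10 genes. Of 7 tested markers of differentiating granule neurons, cells that make Cntn2, 4 fell as well (summed 444 to 484 FPKM in control, 348 to 363 FPKM in cKO over the list), and their part in the Cntn2 result was not tested.

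Cntn1, which encodes the contactin known from axons and from the paranodes of myelinated fibres, measured 12.4, 11.4 and 11.2 FPKM in control and 12.6, 13.0 and 12.5 FPKM in cKO. The cKO values of this gene (ENSMUSG00000055022, chromosome 15, 91949046 to 92239848, plus strand) all lay above the control values, by a small margin. The difference was 0.11 ± 0.05 (SE, 95% interval -0.0025 to 0.23) with an adjusted limma p of 0.15. The ratio of Cntn2 to Cntn1 was 3.91, 4.52 and 4.38 in control and 3.15, 3.14 and 3.45 in cKO, without overlap. The ratio of Cntn2 to L1cam, the other member that fell, was 3.39 ± 0.05 in control and 3.30 ± 0.28 in cKO (SD, n = 3), and its groups overlapped. Cntn2 held 40.8 ± 1.6% of the summed FPKM of the 10 genes in control and 34.8 ± 1.7% in cKO (SD, n = 3).

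Cntn3 and Cntn4, which encode contactins of restricted neuron populations, were below the filter of 1 FPKM. Both are on chromosome 6, Cntn3 (ENSMUSG00000030075) at 102139616 to 102550062, minus strand, and Cntn4 (ENSMUSG00000064293) at 105654621 to 106676271, plus strand. Cntn3 measured 0.354, 0.272 and 0.328 FPKM in control and 0.341, 0.524 and 0.270 FPKM in cKO, from 53 to 142 reads per library. Cntn4 measured 0.130, 0.022 and 0.058 FPKM in control and 0.135, 0.123 and 0.065 FPKM in cKO, from 6 to 45 reads. Both genes overlapped between the groups. Without the filter limma gave adjusted p-values of 0.73 for Cntn3 and 0.62 for Cntn4, and the authors' deposited table lists 0.678 and 0.521.

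**Figure D2:**
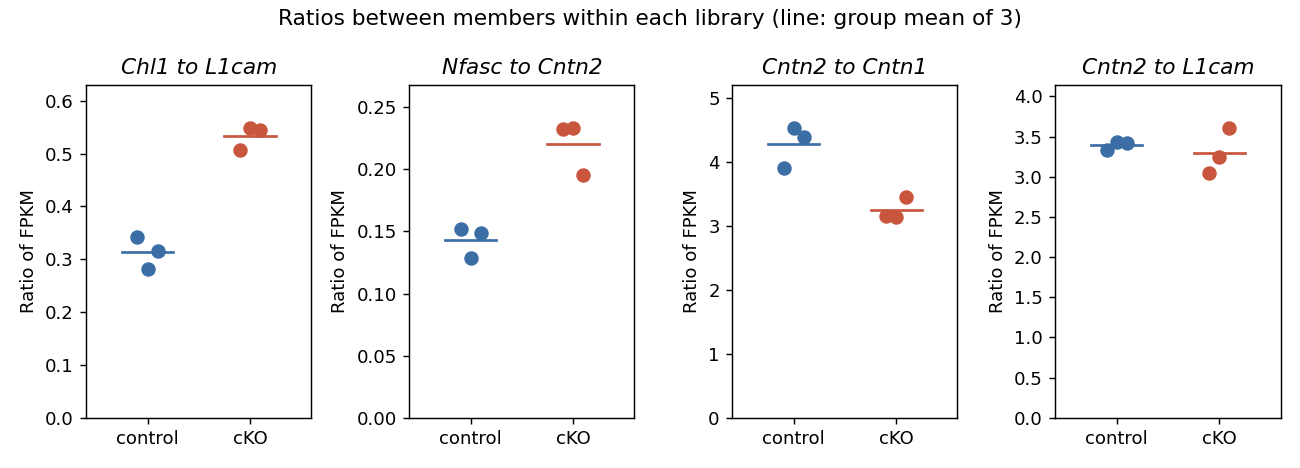
Ratios of FPKM between pairs of members within each library, control in blue and cKO in red, with a line at each group mean of 3 and each axis starting at 0. The ratios of Chl1 to L1cam and of Nfasc to Cntn2 are higher in every cKO library, that of Cntn2 to Cntn1 is lower in every cKO library, and that of Cntn2 to L1cam overlaps.

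The NCAM genes lay higher in every cKO library without passing the threshold. Ncam1 (ENSMUSG00000039542) is on chromosome 9, 49413436 to 49710225, minus strand, and Ncam2 (ENSMUSG00000022762) on chromosome 16, 80997585 to 81423716, plus strand. Ncam1, whose protein is the main carrier of polysialic acid, measured 15.1, 13.4 and 15.4 FPKM in control and 17.3, 16.2 and 15.7 FPKM in cKO. The gap between the groups was small beside their spread, and the difference of 0.16 ± 0.06 (SE, 95% interval 0.01 to 0.30) had an adjusted limma p of 0.11. Ncam2, which encodes the lipid-anchored or transmembrane relative known from olfactory axons, measured 1.31, 1.18 and 1.11 FPKM in control and 1.65, 1.58 and 1.49 FPKM in cKO. Its difference was 0.23 ± 0.08 (SE, 95% interval 0.05 to 0.40) with an adjusted limma p of 0.070. Ncam2 was called with voom on recovered reads (0.35, adjusted p of 0.010), with limma without an intensity trend (adjusted p of 0.029) and with array weights (adjusted p of 0.037), and in the authors' deposited table its log2 fold change was 0.34 with an adjusted p of 0.0121. Over the 13 other alternatives that gave a value for it, Ncam2 was not called.

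**Figure D3:**
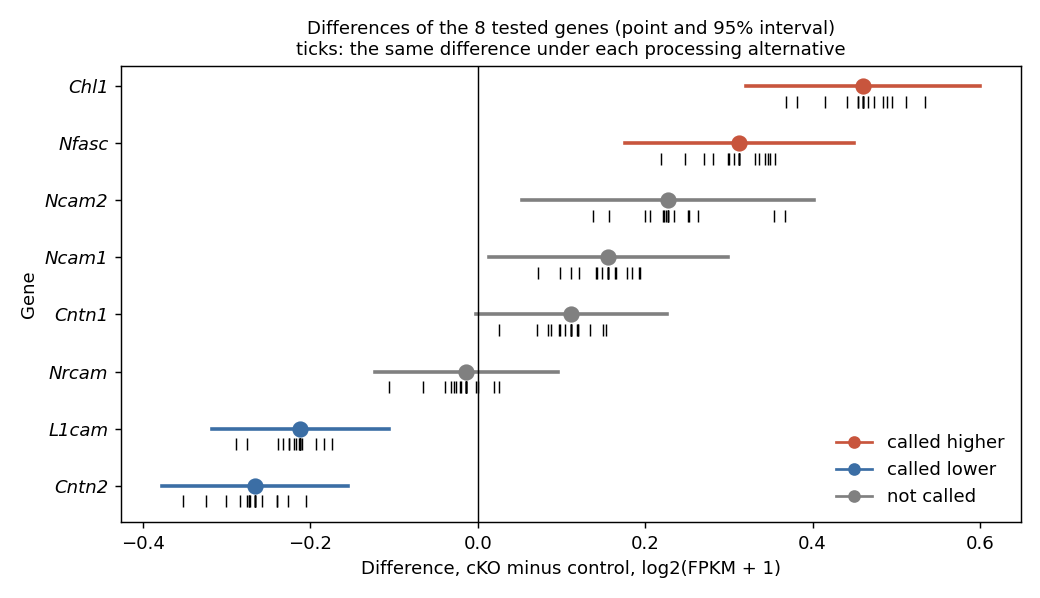
Difference of each of the 8 tested genes, cKO less control in log2(FPKM + 1), as a point with its 95% interval, coloured by call, with a tick below for the value under each processing alternative. The ticks for the smaller pseudocount and for voom are on their own log2 scales. Chl1 (0.46) and Nfasc (0.31) lie right of 0 and L1cam (-0.21) and Cntn2 (-0.27) left of it under every alternative shown, while the ticks of Nrcam fall on both sides of 0.

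The deposited table placed several of these genes side by side. Cntn2 and Nfasc are neighbours on chromosome 1, on the same strand, with 21433 bases and no other listed gene between them, and they were called in opposite directions. Their ratio, Nfasc to Cntn2, was 0.152, 0.128 and 0.149 in control and 0.232, 0.233 and 0.196 in cKO, higher in every cKO library. On chromosome 6 Cntn6, which encodes another contactin, is the only protein-coding gene listed between Chl1 and Cntn4, and it lies 742578 bases from Chl1 on the same strand. Cntn6 measured 2.12, 2.28 and 1.95 FPKM in control and 0.80, 1.00 and 1.45 FPKM in cKO. The groups did not overlap, and the cKO libraries differed among themselves. Cntn6 fell by 48.7%, with a difference of -0.59 ± 0.12 (SE) and an adjusted limma p of 0.013, while Chl1 rose. The adjusted p for Cntn6 was 0.053 without control replicate 2, and it was 0.063 when weakly expressed genes were kept in the fit. With voom on recovered reads the difference was -1.07. Cntn5, the remaining contactin, stayed below 0.1 FPKM in every library and was not tested.

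The partners of these molecules moved in both directions. Of 80 partner and related genes in the table, in 9 lists, 66 were tested, with 18 higher, 5 lower and 43 not called, so that 34.8% were called beside 19.1% of all tested genes. The lists were chosen with earlier results of these data known, so these shares are not a test of the lists. Among the contactin-associated proteins, Cntnap1, the partner of contactin 1 at paranodes, fell from 16.7 ± 0.31 to 12.2 ± 0.52 FPKM (SD, n = 3) with an adjusted limma p of 0.0014. Cntnap4, known from interneuron synapses, rose from 1.72 ± 0.06 to 2.48 ± 0.08 FPKM (SD, n = 3) with an adjusted limma p of 0.0083. The other 5 genes of that list were below the filter.

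None of 8 tested ankyrin and spectrin anchor genes was called by limma, with a list median of 0.03, the same as over all tested genes. The list also holds Dcx, a microtubule protein that binds neurofascin and was its most abundant member at 37.1 and 38.4 FPKM (adjusted limma p of 0.54). At an unadjusted p under 0.05 limma named 1 of the 8, Ank3, which encodes the ankyrin of the axon initial segment, and voom called the same gene lower. Ank3 measured 8.55, 8.22 and 8.08 FPKM in control and 7.63, 7.06 and 7.35 FPKM in cKO, with an adjusted limma p of 0.058.

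Of 14 tested binding partners and ligands 7 rose and 1 fell, with a list median of 0.18. Tnr, which encodes tenascin-R, a matrix ligand of contactins made by oligodendrocyte lineage cells and some interneurons, measured 2.47, 2.19 and 2.27 FPKM in control and 4.26, 4.08 and 3.91 FPKM in cKO, a rise of 76.8% (adjusted limma p of 0.0011). Mag, a myelin glycoprotein gene, rose from 2.61 to 4.13 FPKM with an adjusted limma p of 0.0030. Of 8 markers of oligodendrocyte lineage cells, which make both, 7 were called higher too, while the other, Pdgfra, was lower in every cKO library. The part of these cells was not tested. Ptprz1, which encodes a receptor phosphatase that binds contactin 1 and is made mainly by glia, rose from 22.1 to 27.1 FPKM with an adjusted limma p of 0.014, and with 0.053 when cKO replicate 2 was left out. The gene that fell was App, named here after its value was seen.

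Among 9 tested genes of NCAM polysialylation and signalling 2 rose and 1 fell. Gap43, which encodes a growth cone protein that acts downstream of NCAM, fell from 225 ± 13 to 135 ± 5.3 FPKM (SD, n = 3), a difference of -0.74 ± 0.06 (SE) with an adjusted limma p of 0.00040. On log2(FPKM + 1) no other gene of the 9 lists had a larger difference in either direction, and this order depended on the scale. With a pseudocount of 0.1 the difference was -0.74 for Gap43, -0.94 for Cntn6 and 0.80 for Tnr. With voom on recovered reads it was -0.79 for Gap43, -1.07 for Cntn6 and 0.77 for Tnr. Gfra1, a coreceptor that also binds NCAM, rose from 2.51 to 4.03 FPKM (adjusted limma p of 0.0041), and the kinase gene Src rose from 16.5 to 18.8 FPKM (adjusted limma p of 0.017). The Src call was lost without control replicate 3 (adjusted p of 0.056) and without cKO replicate 2 (0.061).

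Of 5 tested genes listed as sheddases or relatives of them, limma called Adam17 (10.3 to 11.9 FPKM) and Adam10 (35.6 to 40.3 FPKM) higher. Both encode proteases that cut L1 and NCAM from the cell surface, and their adjusted limma p-values were 0.028 and 0.043. Leaving out any 1 library other than cKO replicate 1 ended both calls, with adjusted p-values of 0.051 to 0.11 for Adam17 and 0.061 to 0.13 for Adam10. Of 7 tested nectins and SynCAMs limma called 1, Nectin2, higher, from 9.24 to 10.8 FPKM (adjusted limma p of 0.042). That call was lost without any 1 library other than control replicate 2, with adjusted p-values of 0.076 to 0.12, and voom called Nectin1 in its place. None of the 5 IgLON genes was called by limma or voom, although 3 had an unadjusted limma p under 0.05. Iglon5, the most abundant, measured 19.2 and 17.7 FPKM with an adjusted limma p of 0.16. Of 15 other tested immunoglobulin adhesion genes 5 rose and 1 fell. Kirrel2, a nephrin relative, rose from 26.8 ± 0.50 to 37.8 ± 2.0 FPKM (SD, n = 3), Dscaml1 from 2.81 to 4.58 FPKM and Kirrel3 from 2.51 to 3.59 FPKM, with adjusted limma p-values of 0.0011, 0.0076 and 0.0062.

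**Figure D4:**
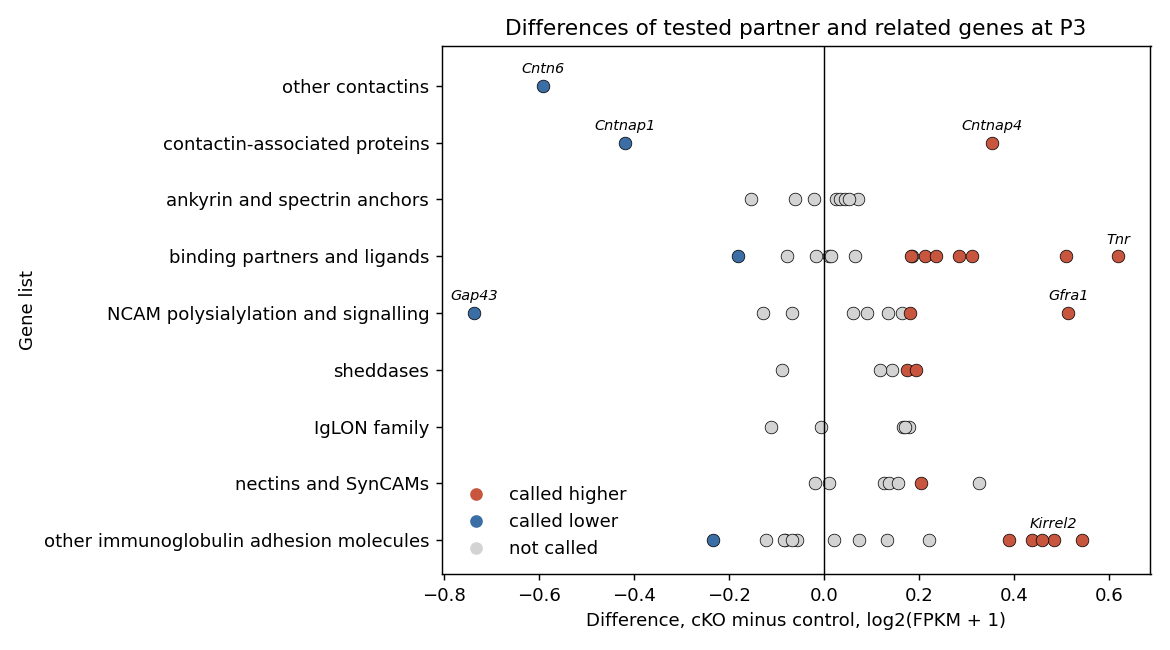
Difference, cKO less control in log2(FPKM + 1), of each tested gene in 9 lists of partners and related adhesion molecules, with genes called higher in red, lower in blue and not called in grey. Gap43 (-0.74), Cntn6 (-0.59) and Cntnap1 (-0.42) lie farthest left, and Tnr (0.62) lies farthest right.

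Several of these molecules are also made by cells outside the granule lineage, and markers of such cells moved with the groups. Of 8 GABAergic interneuron markers 7 rose and Lhx1 fell, with summed levels of 90.1 to 98.7 FPKM in control and 121 to 134 FPKM in cKO. Of 8 oligodendrocyte lineage markers 7 rose, with sums of 121 to 127 and 154 to 167 FPKM. The other, Pdgfra, was lower in every cKO library, with means of 23.9 and 21.8 FPKM. Its adjusted limma p was 0.062, and voom called it lower. All 8 endothelial markers rose (125 to 136 against 221 to 238 FPKM). So did 6 of 7 pericyte markers (39.7 to 41.5 against 61.2 to 61.7 FPKM), 1 of them (Cspg4) shared with the oligodendrocyte list. Of 7 microglial markers 5 rose (142 to 145 against 175 to 199 FPKM). Among 8 markers of astroglia and Bergmann glia 4 rose (831 to 856 against 872 to 903 FPKM). Fabp7, by far the most abundant of these 8, went from 533 to 503 FPKM. Its groups overlapped with an adjusted limma p of 0.32, and voom called it lower. Of 8 Purkinje cell markers 4 were tested and 3 rose, with sums of 11.2 to 12.8 and 14.7 to 15.1 FPKM, and the defining markers Pcp2 and Ppp1r17 stayed below 1 FPKM in the mean. Of 6 tested choroid plexus markers 4 fell and 1 rose, with sums of 1355 to 1441 and 647 to 724 FPKM.

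In the granule lineage itself 3 of 10 progenitor markers and 4 of 7 tested markers of differentiating granule neurons fell and none rose. The sums were 1072 to 1128 against 890 to 932 FPKM for progenitors and 444 to 484 against 348 to 363 FPKM for differentiating neurons, and Gabra6, a marker of mature granule neurons, was below 0.1 FPKM in both group means. No marker of the 10 lists was at 0 in all libraries. The part of these marker shifts in the results for Chl1, Nfasc, Cntn2, L1cam and their partners was not tested.

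The genes whose pattern over the 6 libraries was most like that of Chl1, among 7971 with a mean of at least 5 FPKM, were Jmy (6.94 to 8.61 FPKM), Ncapg2 (6.77 to 9.05 FPKM) and Hus1 (5.70 to 6.93 FPKM), with Pearson r values of 0.9985, 0.9979 and 0.9976 on log2(FPKM + 1). For Cntn2, Pja1 (41.9 to 36.0 FPKM) and Cog1 (24.5 to 19.4 FPKM) were among the 3 most alike, with 0.9970 and 0.9953. The 6 points of each r fall in 2 groups, and 831 of the 7971 genes had an r above 0.9 with Chl1 and 416 with Cntn2.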

How the data were processed

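RNA-seq of granule cell progenitors was deposited by the authors as 1 table for P3 with FPKM values per library, 3 control and 3 cKO. The cKO columns carry the prefix ZM, which the labels do not explain and which was read as cKO because the other columns are named WT. Per the labels' protocols, libraries were poly(A)-selected and dUTP-marked. Tools named without roles in the submitters' processing notes are HISAT2 2.2.1, StringTie 2.1.6, cutadapt 1.9, edgeR and DESeq2, and the build named is mm10, and the use of strand in counting is not given in the sources used here, so reads of a gene and of one that overlaps it may not be separate. The table also holds the authors' mean signal per gene, log2 fold change with its standard error, test score, p-value and adjusted p-value, per the file headers. Its positions are printed as given: of 10 members none had the same start and end as in the GRCm38 annotation (GENCODE), although mm10 is the build named. The promoter windows are from a different table and carry GRCm38.p6 coordinates.

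FPKM times gene length gave whole reads for 100% of values (within 0.02 reads), which gave the depths. limma 3.58.1 in R 4.3.3 was run with an intensity trend and no covariates on log2(FPKM + 1), with a pseudocount of 1. No pair of replicates agreed within counting noise (chi-square per degree of freedom of 4.21 to 8.99). The fit was tested on simulated data that had the same extra spread for every gene and no shift in cell types. That test therefore does not cover the marker shifts seen in these libraries. The members and lists were chosen with earlier results of these data known. The named genes were the 10 members, Znhit3, from each partner list up to 3 called genes with the smallest p or the most abundant where none was called, and the 3 genes most like the member with the largest rise and with the largest fall. One gene that this rule names is not reported here. Xist, the Y-linked genes, Cntn5, Ank3, App, Nectin1, Atoh1, Lhx1, Gabra6, Cspg4, Pdgfra, Fabp7, Pcp2 and Ppp1r17 were named after their values were seen. One listed partner was not matched in the table. The alternatives were other pseudocounts, filters, scalings and variance models, a replicate block, removal of a gene length trend, voom on recovered reads and leaving out each library. The P6 samples were not analysed here.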

Additional observations from a re-analysis of the deposited data

How the results depend on the processing

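Over 17 alternatives Chl1, Nfasc and Cntn2 were called in the same direction in all 17, with differences of 0.37 to 0.53, 0.22 to 0.36 and -0.35 to -0.20. L1cam was called in 14 of 17, with differences of -0.29 to -0.17. These ranges include the smaller pseudocount and voom, whose differences are on log2 scales other than log2(FPKM + 1). The count of members called lower ranged from 1 to 2 when 1 library was left out, and it was 1 without control replicate 2, cKO replicate 2 or cKO replicate 3. The count of members called higher was 2 as reported and 3 with TPM scaling, no intensity trend, array weights or voom. Nrcam, not called anywhere, changed sign to 0.0251 with TPM scaling, and ranged from -0.0392 to 0.0197 when 1 library was left out. Dcx changed sign to -0.0395 after removal of a gene length trend and was at -0.00 with voom. Ncam1 had an adjusted p of 0.050, just under the threshold, with TPM scaling. All members are long (6730 to 14145 bases, against a median of 4219 bases over tested genes), and removal of a gene length trend moved Chl1 to 0.37, Ncam1 to 0.07 and Cntn2 to -0.35, with all 4 calls kept.

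The count of all genes called was 2590. It was 1271 with no filter on low values, 1542 with the replicate block and between 1193 and 2170 without 1 library. It was larger with TPM scaling (3000), voom (3584) and array weights (3721). The 1813 higher and 777 lower genes became 1765 and 1819 with voom. Over the tested genes the median of the differences was 0.0324 as reported, 0.0675 with TPM scaling, -0.0027 with quantile normalization, -0.0050 after removal of a gene length trend and -0.0123 with voom. The shared replicate numbers did not pair the libraries (correlations of deviations of -0.024, 0.036 and -0.097), and the replicate block left 2 members called higher and 2 lower. Of the named partners it ended the calls of Src, Adam10, Adam17 and Nectin2. Of the cKO libraries only replicate 2 correlated best with the control library of its own number, and that correlation was only 0.036. This was read from the data, and no pairing was found in the labels. edgeR on recovered reads was not run. Cntn3 and Cntn4 had few reads, and 3 libraries a group limit all calls.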
